A study of Mus musculus with 55 samples.

Results

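LT-HSCs labelled Tet2;Sting DKO were compared with LT-HSCs labelled Sting-/-, over every gene expressed in them. The comparison takes 6 of the 55 libraries of the series, 3 of each genotype, chosen by their labelled genotype and cell type and not by any measured value. LT-HSCs are the long-term repopulating stem cells of bone marrow, sorted here as Lin-cKit+Sca1+CD48-CD150+ cells. Each library was made from a small pool of sorted cells by a modified SMART-Seq2 protocol in the study's methods, and with a SMART-seq kit in the labels. In both, full-length cDNA is amplified before sequencing. The Sting-/- mice were germline knockouts of Sting, and the sources used here do not describe the allele. The DKO mice carried the same Sting genotype together with floxed Tet2 alleles and the Mx1-Cre transgene, on a C57BL/6 background. Mx1-Cre is switched on by interferon, and was induced with poly(I:C) in young mice. It acts in blood cells and in other cells that respond to interferon. Both groups therefore lacked Sting by genotype, and the labelled difference between them was the loss of Tet2. In a flow cytometry experiment of the study on the same genotypes all mice were analysed after poly(I:C). For the RNA-seq mice compared here, whether the Sting-/- mice received it, and the age at sorting, are not given in the sources used here. The study presents each library of this experiment as a separate mouse.

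TET2 is a dioxygenase that oxidises 5-methylcytosine in DNA, and its gene is often mutated in clonal hematopoiesis and in myeloid neoplasms. STING, encoded by Tmem173, is the adaptor that the DNA sensor cGAS activates through cyclic GMP-AMP. Through TBK1 it switches on IRF3 and NF-kB, and with them type I interferon and inflammatory genes. Comparing the 2 genotypes asks what the loss of Tet2 does to the transcripts of LT-HSCs in mice bred to lack STING.

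The Sting-/- libraries held 55842588, 40641627 and 62767946 counts and the DKO libraries 34137655, 78682096 and 44201163. Between 9382 and 10942 genes had a count in each. Across genes the correlation of log2 CPM (counts scaled to the library total) was 0.80 to 0.86 within the Sting-/- group, 0.82 to 0.84 within the DKO group, and 0.78 to 0.86 between the groups. The summed level of 8 gate and stem cell genes was 903 to 1390 CPM in Sting-/- and 1260 to 1510 CPM in DKO. Of these, Fgd5 stayed at or under 7.9 CPM in all 6 libraries, and Slamf1, which encodes the CD150 of the gate, was at 0 CPM in Sting-/- replicate 1 and at 0.0905 CPM in DKO replicate 3. Cd48, which the gate excludes, was at 0, 0.0984 and 0.0637 CPM in Sting-/- and 27.7, 24.7 and 0.43 CPM in DKO, and Flt3, a gene of multipotent progenitors, at 23.5, 4.01 and 40.5 CPM against 0.937, 0.559 and 6.09 CPM. Neutrophil genes summed to 165 CPM in DKO replicate 2, with Elane at 36.9, Mpo at 49.3 and S100a8 at 79.1 CPM, and to 0.86 to 1.83 CPM in the other 5 libraries. Megakaryocyte genes summed to 352 CPM in Sting-/- replicate 1, with Pf4 at 271 and Ppbp at 67.9 CPM, and to 64.9 to 94.7 CPM in the other 5. Of the markers of other cells, Klf1 (erythroid), Cd3e (T cell), Ms4a1 (B cell), Csf1r and Adgre1 (macrophage) were at 0 in all 6. In the same lists the NK and T cell gene Nkg7 was at 36.3 to 118 CPM, the B cell gene Cd79b at 0 to 56 CPM in Sting-/- and 31.2 to 85.4 CPM in DKO, and the macrophage gene Cd68 at 0 to 62.4 CPM. Ly6c2, of monocytes, reached 21.2 CPM in DKO replicate 2. The part of these cells in the differences below was not tested. All 6 libraries carried Y-linked transcripts, with Eif2s3y at 151 to 298 CPM, so sex did not separate the groups. Xist was at 14.4 CPM in Sting-/- replicate 1 and at no more than 0.234 CPM in the other 5. The 3 WT libraries of the same table carried Xist at 102 to 255 CPM and Eif2s3y at no more than 0.247 CPM, and differ from the 6 in sex as well as genotype.

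The transcripts of the targeted genes did not follow the labels. Tet2 had 498, 1729 and 91 counts in Sting-/- replicates 1 to 3 and 1342, 1433 and 56 in DKO replicates 1 to 3. The groups overlapped, with a log2 fold change of 0.29 ± 1.94 (SE) and an exact two-sided permutation p of 1, where 0.1 is the smallest that 3 against 3 libraries can give. The conditional allele removes only a part of Tet2, so counts over the whole gene can remain after deletion. Tmem173 had 6333, 0 and 3835 counts where the label was Sting-/- and 0, 14 and 1128 where it was DKO (exact two-sided permutation p = 0.4). In the WT libraries of the same table it had 1788, 1168 and 0 counts. Sting-/- replicates 1 and 3 were thus above every WT library in Tmem173, and the counts of neither gene checked the genotype of a library. Whether the Sting allele leaves a transcript that can be counted is not given in the sources used here. The study itself reports, from a western blot, that STING protein was lost in bone marrow cells of Sting-/- and DKO mice. Sting-/- and DKO below mean the libraries labelled so. In bulk RNA of this kind, fewer cells of a type and less RNA per cell cannot be told apart.

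Of the 9437 genes tested, 15 (0.159%) were lower in the DKO libraries at an adjusted p under 0.05 and at least 2-fold, and none (0%) was higher. In each of the 15, among them Rpl13, H2-D1, Nfkbia and Junb, the 3 DKO libraries lay below the 3 Sting-/- libraries. At an unadjusted p under 0.05 and 2-fold, 489 genes (5.18%) were lower and 173 (1.83%) higher, and the median log2 fold change of all genes tested was 0.06. With single libraries left out, these counts ran from 398 to 547 lower and from 189 to 334 higher. Unless DESeq2 is named, calls, passes and adjusted p-values were those of edgeR's quasi-likelihood test with Benjamini-Hochberg adjustment, here and below. DESeq2 called 484 genes lower, all 15 among them, and 153 higher. With Sting-/- replicate 1, 2 or 3 or DKO replicate 1, 2 or 3 left out in turn, edgeR called 0 genes each time, although all 15 stayed at least 2-fold lower.

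Rpl13, which encodes a protein of the large ribosomal subunit, had the smallest p. It was at 3330, 1890 and 1750 CPM in Sting-/- and 98.2, 157 and 86.2 CPM in DKO, a log2 fold change of -4.29 ± 0.41 (adjusted p = 0.0196). H2-D1, a heavy chain of MHC class I, stood at 3410, 2680 and 2100 CPM against 281, 371 and 450 CPM (-2.84 ± 0.28, adjusted p = 0.0196). Both genes have near-identical relatives or pseudogenes in the genome, with which reads can be shared, as do Fth1 and Eif1.

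Nfkbia encodes IκBα, the inhibitor that holds NF-kB in the cytoplasm and is itself induced by NF-kB. It was at 1590, 1070 and 1110 CPM in Sting-/- and 67.6, 88.4 and 37.1 CPM in DKO (log2 fold change -4.22 ± 0.42, adjusted p = 0.0196). Junb, a subunit of the AP-1 transcription factor, was at 686, 359 and 269 CPM against 7.09, 23.2 and 18.5 CPM, and had the largest fold change of the 15 (-4.71 ± 0.62, adjusted p = 0.0475). The highest DKO library lay more than 10 times below the lowest Sting-/- library in both genes.

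Dnajb1, an Hsp40 co-chaperone induced by heat shock, was at 642, 284 and 363 CPM against 13.1, 27.7 and 28.3 CPM (log2 fold change -4.18 ± 0.51). Dnajb9, an ER co-chaperone of the unfolded protein response, was at 719, 554 and 484 CPM against 52.1, 64.1 and 22.8 CPM (-3.59 ± 0.47). Adrm1, a ubiquitin receptor of the proteasome, was at 175, 328 and 338 CPM against 11.9, 16.1 and 19 CPM (-4.09 ± 0.48). Their adjusted p-values were 0.0341, 0.0475 and 0.0319.

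Atp5b, the catalytic beta subunit of ATP synthase, was at 826, 1690 and 1410 CPM in Sting-/- and 200, 150 and 138 CPM in DKO (log2 fold change -2.92 ± 0.33). Chchd2, a protein of the mitochondrial intermembrane space, was at 603, 356 and 355 CPM against 20.2, 30.1 and 21.5 CPM (-4.14 ± 0.41). Fth1, the heavy chain of the iron store ferritin, was at 4300, 2630 and 2010 CPM against 50.5, 183 and 124 CPM (-4.6 ± 0.55). Fth1 was the gene with the widest range inside the DKO group among these, and its DKO libraries still lay more than 10 times under the lowest Sting-/- library.

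The remaining called genes were Eif1, which helps to select the start codon (-2.99 ± 0.34), Arpc2, a subunit of the actin-nucleating Arp2/3 complex (-2.35 ± 0.26), Pgrmc1, a heme-binding membrane protein (-3.4 ± 0.34), Ptprcap, which associates with the phosphatase CD45 (-3.55 ± 0.43), and Gltscr2, a nucleolar protein of ribosome biogenesis (-4.06 ± 0.5). Eif1 was at 2110, 1640 and 2040 CPM in Sting-/- and at 129, 272 and 302 CPM in DKO. Arpc2 was the least changed of the 15, at 877, 764 and 856 CPM against 147, 128 and 195 CPM. In all 15 genes the 3 WT libraries of the same table lay above the highest DKO library, and in 10 of the 15 every WT library was at or above the lowest Sting-/- library.

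**Figure D1:**
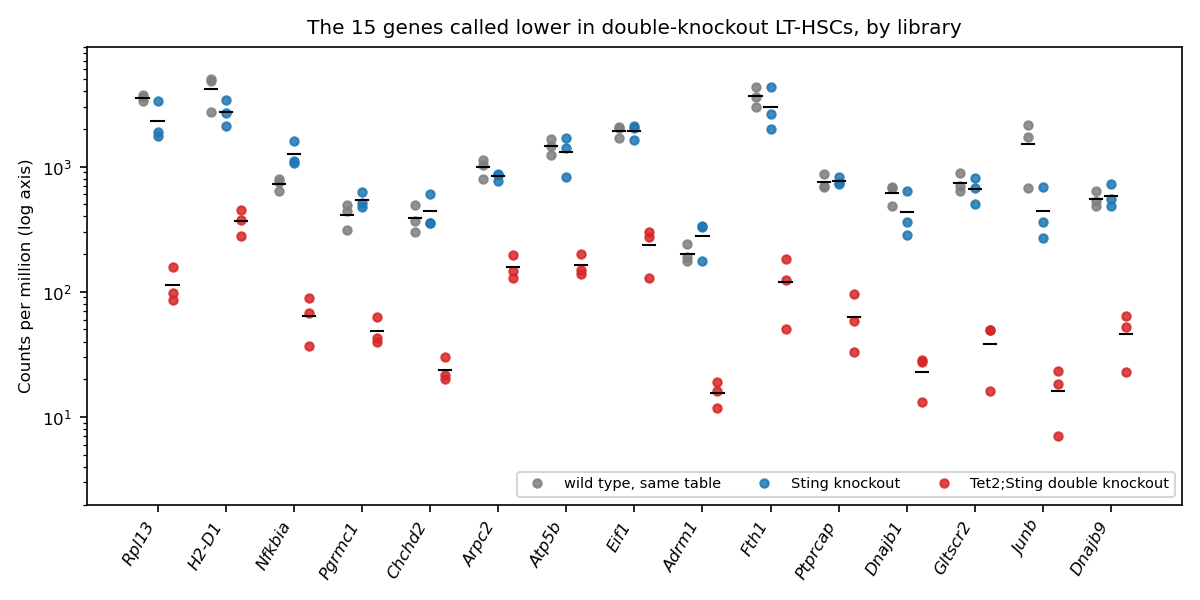
CPM (log axis) of the 15 genes called lower, one point per library, with the mean of each group of 3 as a short line; WT libraries are in grey, Sting-/- in blue and DKO in red. In every gene the 3 DKO points lie below all WT and Sting-/- points, as for Junb with DKO at 7.09 to 23.2 CPM and Sting-/- at 269 to 686 CPM.

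The called genes shared a property of sequence. All 14 of them with a matched reference transcript contained a stretch of 100 bases with 70% or more G+C, where 62.8% of the 8946 genes tested with a transcript had one. Over all genes, the median log2 fold change was 0.34 where the richest such stretch had under 60% G+C, 0.47 at 60 to 64%, and 0.35 at 65 to 69%. It was -0.14 at 70 to 74%, -0.7 at 75 to 79% and -0.11 at 80% or more. The groups did not overlap in 15.6% of the genes with a stretch of 70% or more in the lower direction and 4.52% in the higher, against 3.76% and 12.5% of the genes without one. Genes with such a stretch took 50.2%, 50.9% and 50.8% of all counts in the Sting-/- libraries and 37.2%, 42.4% and 44.5% in the DKO libraries. In the WT libraries of the same table they took 59.3%, 51.6% and 55.4%. The DKO libraries therefore stood apart from both other groups in how many counts fell on G+C-rich transcripts, and the fits that take it into account are given next.

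Across the 3367 genes at a mean of 50 CPM or more, Spearman's rho between the G+C of the richest stretch and the log2 fold change was -0.35, and between transcript length and the log2 fold change 0.01. These are correlations across genes of the same 6 libraries, and genes are not independent replicates. Among the 3324 genes without a stretch of 70%, tested on their own, edgeR called 0 genes, with 45 higher and 72 lower at an unadjusted p under 0.05 and 2-fold. With a smooth correction for the G+C of that stretch in each library, 0 genes were called and 14 of the 14 genes that could be fitted stayed at least 2-fold lower, with adjusted p-values from 0.0557 to 0.135.

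**Figure D2:**
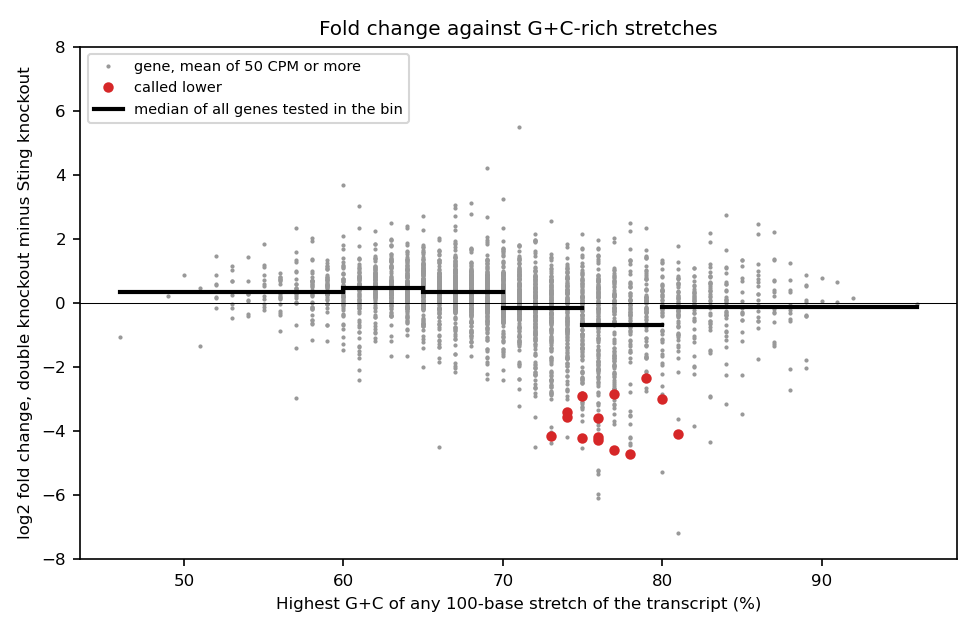
Each grey point is a gene at a mean of 50 CPM or more, with the highest G+C of any 100-base stretch of its transcript (%) on the x axis and the log2 fold change of DKO minus Sting-/- on the y axis; red points are called genes and black lines are bin medians over all genes tested. The bin medians pass from 0.35 at 65 to 69% to -0.7 at 75 to 79%, and all red points lie to the right of 70%.

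The stretches themselves are shown for 3 called genes, and for a pair of MHC class II chains of which H2-Ab1 was at lower and H2-Aa at higher values in DKO, and for Stip1, the higher gene of smallest p. Each is the 100 bases of highest G+C inside the coding sequence, read 5′ to 3′ on the mRNA strand from GENCODE vM21 on GRCm38 (mm10), and capitals mark runs of 6 or more G or C. The Rpl13 and H2-Aa stretches cross a splice junction, so their genomic span is longer than 100 bases.
Rpl13: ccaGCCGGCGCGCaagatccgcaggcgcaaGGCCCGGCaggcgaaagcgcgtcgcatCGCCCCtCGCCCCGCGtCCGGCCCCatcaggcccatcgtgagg
Nfkbia: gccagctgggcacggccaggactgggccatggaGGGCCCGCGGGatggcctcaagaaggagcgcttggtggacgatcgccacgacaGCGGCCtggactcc
Junb: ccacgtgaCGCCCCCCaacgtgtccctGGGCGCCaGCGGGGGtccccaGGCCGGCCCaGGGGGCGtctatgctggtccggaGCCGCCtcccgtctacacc
H2-Ab1: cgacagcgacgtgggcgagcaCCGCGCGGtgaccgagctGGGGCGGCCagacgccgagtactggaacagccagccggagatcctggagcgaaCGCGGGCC
H2-Aa: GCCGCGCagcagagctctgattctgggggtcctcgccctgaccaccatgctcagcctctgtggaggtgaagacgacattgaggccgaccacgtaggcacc
Stip1: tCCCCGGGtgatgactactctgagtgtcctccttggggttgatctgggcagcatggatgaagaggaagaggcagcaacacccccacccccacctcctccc

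The Rpl13 stretch lay at chr8:123102739-123102920 on the plus strand and had 76% G+C with 5 such runs. Those of Nfkbia (chr12:55492419-55492518, minus strand) and Junb (chr8:84977890-84977989, minus strand) had 71% and 76% G+C with 2 and 6 runs. The H2-Ab1 stretch (chr17:34264867-34264966, plus strand) had 73% G+C and 3 runs. In the genes with higher values the richest coding stretch had 64% in H2-Aa (chr17:34284520-34287764, minus strand) and 61% in Stip1 (chr19:7032538-7032637, minus strand), with 1 run each. The stretches were picked after the values were seen, and genes of both directions had rich and poor ones. Over whole transcripts the richest stretch held 78% G+C in Hspa8 and 87% in Mcl1, which had higher values in DKO, and 61% in Rab1a, which had lower ones.

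No gene passed the edgeR test in the higher direction, where DESeq2 called 153. The 12 genes named here had the smallest unadjusted p among those at least 2-fold higher, with groups that did not overlap and a DKO mean of 20 CPM or more. Groups did not overlap in the higher direction in 706 genes (7.48%) and in the lower in 1045 (11.1%). Stip1, the co-chaperone that links Hsp70 to Hsp90, was at 256, 242 and 204 CPM in Sting-/- and 718, 778 and 572 CPM in DKO (log2 fold change 1.63 ± 0.26, adjusted p = 0.0708). Hsp90ab1, the constitutive cytosolic Hsp90, was at 1030, 2010 and 1480 CPM against 2850, 2990 and 3740 CPM (1.15 ± 0.25, adjusted p = 0.202). Hspa8, the constitutive Hsp70, was at 1220, 1470 and 2160 CPM against 2570, 3770 and 4480 CPM (1.21 ± 0.28, adjusted p = 0.236). None of the 3 passed the test in edgeR, and all 3 did in DESeq2. That their groups did not overlap was a condition for being named.

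Hnrnpc, an hnRNP protein that binds nascent transcripts, was at 800, 790 and 686 CPM against 1480, 1490 and 1460 CPM (1.03 ± 0.19, adjusted p = 0.113). Cdc123, an assembly factor of the initiation factor eIF2, was at 106, 105 and 119 CPM against 322, 364 and 311 CPM (1.66 ± 0.29, adjusted p = 0.0985). Lrrfip1, a nucleic acid-binding protein, was at 85.2, 66.3 and 71 CPM against 348, 247 and 189 CPM (1.89 ± 0.4, adjusted p = 0.192). The replicates of Hnrnpc and Cdc123 were close together in both groups. None of the 3 passed the adjusted threshold in edgeR, and all 3 did in DESeq2.

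Other genes of the 12 were near absent from the Sting-/- libraries. Rab3gap1, a regulator of Rab GTPases, was at 0 in all 3 Sting-/- libraries and at 44.1, 54.1 and 52.8 CPM in DKO, at least 861-fold higher when 3 counts per library, a limit that covers counting error only, are taken as the floor (adjusted p = 0.178). Zc3h8, a zinc finger protein, was at 0 against 62.4, 30.7 and 60.2 CPM, at least 874-fold higher (adjusted p = 0.178). Rad9a, of the 9-1-1 clamp that signals DNA damage, was at 0, 0 and 0.0319 CPM against 75.2, 13.1 and 57.4 CPM, at least 831-fold higher (adjusted p = 0.213). Zfp758, a zinc finger gene, was at 0, 0.123 and 0.0319 CPM against 36, 220 and 64.7 CPM (adjusted p = 0.0976). The WT libraries held Rab3gap1 at 30.3, 12.4 and 4.71 CPM and Zc3h8 at 0.0573, 0 and 0 CPM.

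Genes of this all-or-none kind ran in both directions. In all, 11 genes had 3 counts or fewer in each Sting-/- library and 10 CPM or more in each DKO library, and 8 showed the reverse. Among the 8 was Nf1, the Ras GTPase-activating tumour suppressor, at 50.7, 13 and 10.5 CPM in Sting-/- and 0 in all 3 DKO libraries, at least 382-fold lower, or 181-fold without Sting-/- replicate 1. It was named after its values were seen, and its adjusted p was 0.344. In the WT libraries Nf1 was at 5.45, 1.58 and 0 CPM, so it was also absent from 1 library of a genotype that had it in the others. None of the 19 genes passed the adjusted threshold in edgeR. In DESeq2, Rab3gap1 (adjusted p = 2.31e-12), Zc3h8 (3.06e-12), Rad9a (1.74e-09) and Nf1 (1.4e-06) did.

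The gene lists below were described by their counts and medians, beside a median log2 fold change of 0.06 over all genes tested, 0.38 over genes without a G+C stretch of 70% and -0.26 over those with one. Of the 9437 genes tested, 4901 had fold changes above 0 and 4536 below. Above 0 were 2249 of the 3324 genes without such a stretch and 2392 of the 5622 with one. A group that did not overlap means that all 3 libraries of one genotype lay on the same side of all 3 of the other. In antigen presentation 1 of 27 genes tested fell and none rose by the edgeR test (0.159% and 0% of all genes). The class I heavy chain H2-K1 had values like those of H2-D1, at 2850, 2940 and 3200 CPM in Sting-/- and 504, 850 and 971 CPM in DKO (-1.9 ± 0.26, adjusted p = 0.0516). H2-K1 was called lower by DESeq2 (adjusted p = 3.06e-12), as was H2-D1 (adjusted p = 1.02e-24). B2m, the light chain that pairs with both, was at 10100, 9860 and 7660 CPM against 12500, 12200 and 10800 CPM (0.43 ± 0.19, adjusted p = 0.598), and its fold change was -0.01 with the G+C correction. The heavy chains thus lay below and the light chain above the Sting-/- level in the uncorrected fit.

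Class II genes also lay on both sides. H2-Aa, the alpha chain of I-A, was at 192, 159 and 323 CPM against 562, 745 and 540 CPM (1.52 ± 0.34, adjusted p = 0.228), while H2-Ab1, the beta chain of the same dimer, was at 288, 307 and 352 CPM against 60.6, 199 and 139 CPM (-1.19 ± 0.44, adjusted p = 0.493). Cd74, the invariant chain, was at 999, 681 and 1150 CPM against 2210, 2520 and 1510 CPM (1.21 ± 0.3, adjusted p = 0.285). H2-DMb1, which loads peptides onto class II, was at 144, 174 and 146 CPM against 347, 400 and 451 CPM (1.43 ± 0.27, adjusted p = 0.116). By DESeq2, H2-Aa (adjusted p = 0.000114), Cd74 (adjusted p = 0.000524) and H2-DMb1 (adjusted p = 2.19e-07) were called higher. H2-Ab1 was not called (adjusted p = 0.0686). All 10 members without a G+C stretch of 70% had fold changes above 0, with a median of 0.83, and groups apart in the higher direction in 6 (12.5% of all genes of that kind). The 17 members with one had a median of 0.32, with groups apart in 1 in the higher and 4 in the lower direction (4.52% and 15.6% of all genes of that kind). H2-K1, H2-D1 and H2-Ab1 were among the 17.

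**Figure D3:**
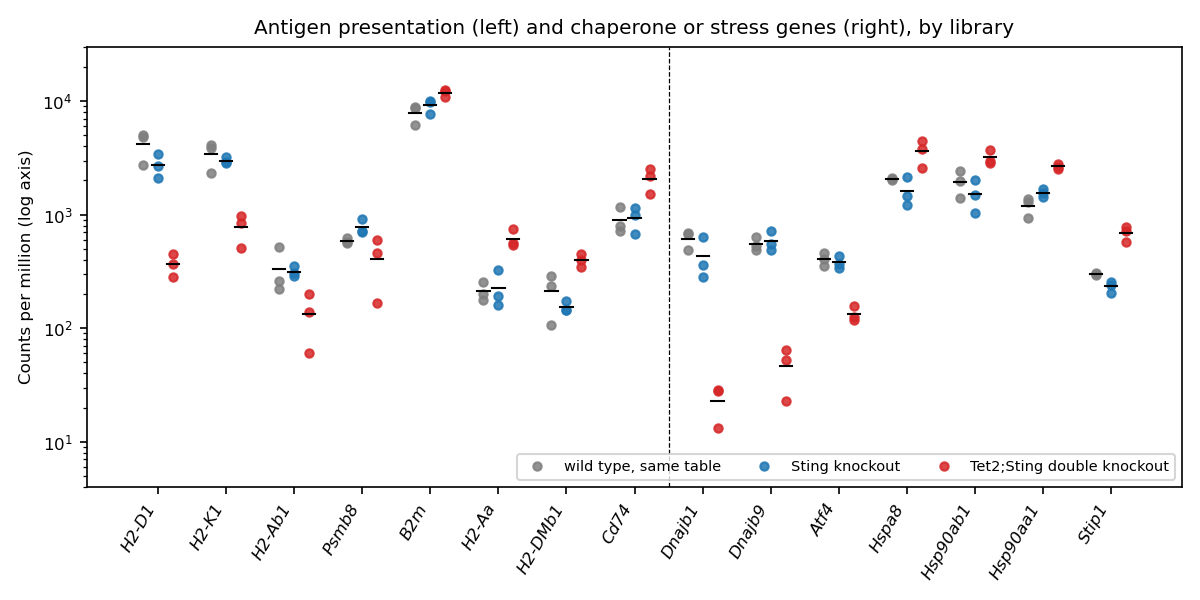
CPM (log axis) of antigen presentation genes (left of the dashed line) and of chaperone and stress genes (right), one point per library with group means as short lines; WT is grey, Sting-/- blue and DKO red. H2-Aa lies higher in DKO (540 to 745 CPM against 159 to 323 CPM) while H2-Ab1, its partner chain, lies lower (60.6 to 199 CPM against 288 to 352 CPM).

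Heat shock and chaperone genes had values on both sides. Dnajb1 and Dnajb9 fell, and none of the other 17 members tested passed in edgeR. Atf4, a transcription factor of the integrated stress response, was at 341, 370 and 430 CPM against 117, 126 and 158 CPM (-1.45 ± 0.28, adjusted p = 0.144). Atf4 was called lower by DESeq2 (adjusted p = 5.43e-06). Hsp90aa1, the inducible Hsp90, was at 1430, 1560 and 1700 CPM against 2650, 2550 and 2790 CPM (0.83 ± 0.17, adjusted p = 0.178). Of the 19 tested, 5 had groups apart in the higher and 6 in the lower direction, beside 7.48% and 11.1% of all genes. The median was 0.39, and 0.39 also over the 3 members without a G+C stretch of 70%. Hspa8 and Hsp90aa1 had higher values in DKO although their richest stretches reached 78% and 74% G+C.

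Immediate early genes, which cells switch on within minutes of a stimulus or of handling, had a median of -0.4, and 23 of 33 tested had fold changes below 0. Junb fell, and no other member passed in edgeR. Ier2, an early response gene, was at 459, 309 and 270 CPM in Sting-/- and 48.2, 63.3 and 41.5 CPM in DKO (-2.7 ± 0.4, adjusted p = 0.0651). Ppp1r15a, or Gadd34, which restores translation after stress, was at 732, 585 and 855 CPM against 98.7, 200 and 169 CPM (-2.16 ± 0.33, adjusted p = 0.0695). By DESeq2, Ier2 (adjusted p = 1.23e-10) and Ppp1r15a (adjusted p = 2.15e-09) were called lower. Mcl1, a survival factor of the BCL2 family, was the exception among the members with groups apart, at 78.5, 129 and 119 CPM against 287, 285 and 226 CPM (1.37 ± 0.35, adjusted p = 0.287). The groups did not overlap in 10 members in the lower direction and in 1 in the higher, beside 11.1% and 7.48% of all genes. Of the 33, 30 had a G+C stretch of 70% or more, a kind of gene in which 15.6% and 4.52% had groups apart.

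NF-kB and inflammatory genes had a median of -1.07 over 19 members tested, of which Nfkbia alone passed in edgeR. Nfkbib, a second IκB inhibitor, was at 110, 53.1 and 59.7 CPM against 9.08, 4.21 and 11.2 CPM (-3.14 ± 1.08, adjusted p = 0.462). Icam1, an adhesion molecule induced by NF-kB, was at 313, 167 and 184 CPM against 90.5, 82 and 134 CPM (-1.07 ± 0.43, adjusted p = 0.542). Ptgs2, the inducible cyclooxygenase, lay the other way at 2.15, 13.7 and 1.67 CPM against 83, 91.9 and 25.8 CPM (3.63 ± 1.4, adjusted p = 0.525). The groups were apart in 2 members in the higher and 5 in the lower direction, beside 7.48% and 11.1% of all genes. All 5 had a G+C stretch of 70% or more, as had 14 of the 19, and 15.6% of all genes of that kind were apart and lower. Ikbkg, or NEMO, the regulatory subunit of the IκB kinase, was at 0, 0 and 0.159 CPM against 85.5, 29 and 7.81 CPM (adjusted p = 0.382). By DESeq2, Nfkbib was called lower (adjusted p = 0.00481), and Ptgs2 (adjusted p = 0.0176) and Ikbkg (adjusted p = 2.23e-05) higher. The 5 members without a G+C stretch of 70% had a median of 0.45 and the 14 with one a median of -1.28, and the median of the list was -0.3 without Sting-/- replicate 1. The level of the gene Nfkb1 itself, which encodes the p105 and p50 subunits, was 300, 133 and 177 CPM against 312, 107 and 174 CPM.

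Interferon-stimulated genes had a median of 0.6, with 34 of 48 tested above 0 and none called by edgeR in either direction. DESeq2 called Ifi203 higher (adjusted p = 0.0454), and Dtx3l (adjusted p = 0.000161) and Trim25 (adjusted p = 0.0369) lower. Ly6e, a GPI-anchored antiviral protein, was at 1460, 1840 and 2270 CPM in Sting-/- and 3160, 2650 and 3070 CPM in DKO (0.74 ± 0.21, adjusted p = 0.355). Ifi203, of the interferon-inducible p200 family, was at 62.9, 118 and 62.8 CPM against 218, 127 and 217 CPM (1.28 ± 0.47, adjusted p = 0.486). Dtx3l, a ubiquitin ligase, was at 24.6, 37.4 and 15.9 CPM against 0, 0.203 and 0.181 CPM (adjusted p = 0.466). Groups were apart in the higher direction in 10 members and in the lower in 3, beside 7.48% and 11.1% of all genes. Of the 10, 9 were among the 41 members without a G+C stretch, a kind of gene in which 12.5% were apart and higher. Among the 41 members without a G+C stretch of 70% the median was 0.7, beside 0.38 for all genes of that kind, and among the 7 with one it was -2.25, beside -0.26.

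For the pathway around STING and the enzymes of DNA methylation, edgeR made no call in any list. DNA sensing genes had a median of -0.11 over 10 tested (0.5 with the replicate block) and RNA sensing genes 0.14 over 7. Interferon signalling genes had a median of -0.02 over 18, and TET and DNMT enzymes 0.09 over 10. DESeq2 called lower Socs2 (adjusted p = 0.00142) and Irf8 (adjusted p = 0.0315) of interferon signalling, and Trim25 (adjusted p = 0.0369) of RNA sensing. Irf3, the transcription factor that TBK1 phosphorylates, was at 92.3, 68.7 and 85.6 CPM against 19.5, 58.6 and 47.4 CPM (-0.92 ± 0.76, adjusted p = 0.987). Socs2, a feedback inhibitor of cytokine receptors, was at 94.4, 173 and 70.9 CPM against 2.75, 16.1 and 13.3 CPM (-3.33 ± 0.97, adjusted p = 0.362). Groups were apart in 1 DNA sensing gene in the lower direction, and in 1 interferon signalling gene in the higher and 2 in the lower, near the 7.48% and 11.1% of all genes.

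DNA replication and mitosis genes had the highest median of the lists, 0.81, with 33 of 42 tested above 0 and no call by edgeR. DESeq2 called Kif11 higher (adjusted p = 2.67e-07), and Cdc20 (adjusted p = 0.00238) and Cenpa (adjusted p = 0.015) lower. Stmn1, a microtubule destabiliser of dividing cells, was at 1380, 1930 and 1820 CPM against 2330, 2920 and 2790 CPM (0.72 ± 0.19, adjusted p = 0.321). Kif11, the mitotic kinesin Eg5, was at 0, 0.0492 and 0 CPM against 7.24, 27.2 and 84.9 CPM, at least 680-fold higher, or 294-fold without DKO replicate 3 (adjusted p = 0.311). Cdc20, an activator of the anaphase-promoting complex, went against them at 54.6, 138 and 76.9 CPM against 0.117, 1.02 and 7.65 CPM (-4.89 ± 1.63, adjusted p = 0.437), as did the centromeric histone Cenpa at 84.3, 142 and 114 CPM against 38.2, 16.4 and 13.3 CPM (-2.23 ± 0.77, adjusted p = 0.464). Of the 25 members without a G+C stretch of 70%, 24 were above 0 with a median of 1.16. The 17 members with one, Cdc20 and Cenpa among them, had a median of 0.2.

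Cyclins, CDKs and other G1 genes had a median of -0.38 over 20 tested, all 20 with a G+C stretch of 70%. Cdk6, a G1 kinase that controls exit from quiescence in stem cells, was at 117, 85.7 and 90.3 CPM against 161, 187 and 194 CPM (0.94 ± 0.39, adjusted p = 0.572). Myc was at 200, 358 and 237 CPM against 39.2, 106 and 142 CPM (-1.42 ± 0.51, adjusted p = 0.482). DNA repair genes had a median of 0.41 over 50 tested, with Apex1, the endonuclease of base excision repair, at 403, 478 and 598 CPM against 862, 764 and 667 CPM (0.7 ± 0.25, adjusted p = 0.47). Ube2d3, which the study names as reduced in Tet2-/- LT-HSCs, lay the other way. It was at 542, 460 and 367 CPM against 116, 169 and 109 CPM (-1.73 ± 0.33, adjusted p = 0.124), and DESeq2 called it lower (adjusted p = 2.64e-06). The groups were apart in 8 repair genes in the higher and 6 in the lower direction, beside 7.48% and 11.1% of all genes.

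Genes of stem cell identity were divided evenly, with 19 of 37 above 0, a median of 0.03 and no call by edgeR. Meis1, a homeobox factor of stem cell maintenance, was at 349, 349 and 387 CPM against 686, 653 and 489 CPM (0.82 ± 0.25, adjusted p = 0.369). Lmo2, a bridging protein of stem cell transcription factor complexes, was at 343, 231 and 320 CPM against 199, 86.2 and 158 CPM (-0.95 ± 0.4, adjusted p = 0.595). The groups were apart in 3 members in each direction, near the 7.48% higher and 11.1% lower of all genes. Lists of the blood lineages had medians of 0.56 for lymphoid priming (9 tested) and 0.22 for the myeloid programme (12), without a call by edgeR. DESeq2 called Cd48 of lymphoid priming higher (adjusted p = 0.000723) and Irf8 of the myeloid programme lower (adjusted p = 0.0315). The medians were -0.23 for the erythroid (7) and -0.46 for the megakaryocyte programme (14), again without a call by edgeR. Without DKO replicate 1 the megakaryocyte median was above 0. Sting-/- replicate 1 held the highest summed megakaryocyte markers, 352 CPM, and their part in the last median was not tested.

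Ribosomal protein genes had mostly small differences above 0, and Rpl13 alone passed the edgeR test. Of 84 cytosolic ribosomal protein genes tested, 77 were above 0, with a median of 0.43. Groups were apart in 31 in the higher and 5 in the lower direction, beside 7.48% and 11.1% of all genes, and in 25 of the 56 without a G+C stretch in the higher, beside 12.5%. Rpl24 was at 373, 355 and 379 CPM in Sting-/- and 621, 564 and 470 CPM in DKO (0.65 ± 0.24, adjusted p = 0.488). Rps2, of the small subunit, was at 359, 205 and 231 CPM against 49.2, 44.2 and 15.1 CPM (-2.8 ± 0.59, adjusted p = 0.185). Rps2 was called lower by DESeq2 (adjusted p = 1.04e-05). The 56 members without a G+C stretch of 70% had a median of 0.48, beside 0.38 for all genes of that kind, and the median over the list was 0.13 with the G+C correction, 0.31 without DKO replicate 1 and 0.52 without DKO replicate 3.

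Mitochondrial ribosomal proteins had a median of 0.11 over 77 tested, made of 0.5 in the 36 without and -1.1 in the 41 with a G+C stretch of 70%. Mrpl12 was at 291, 190 and 229 CPM against 24.4, 21.8 and 17.9 CPM (-3.4 ± 0.47, adjusted p = 0.0546). Mrpl42 was at 206, 200 and 258 CPM against 489, 509 and 332 CPM (1.07 ± 0.3, adjusted p = 0.344). By DESeq2, Mrpl12 was called lower (adjusted p = 8.02e-14) and Mrpl42 higher (adjusted p = 0.0035). Both encode proteins of the large mitochondrial subunit, and their richest stretches had 74% and 59% G+C.

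Nuclear genes of oxidative phosphorylation had a median of 0.33 over 79 tested, of which Atp5b alone passed in edgeR. Cox8a, of cytochrome c oxidase, was at 401, 335 and 339 CPM against 20.1, 53.8 and 34.8 CPM (-3.25 ± 0.45, adjusted p = 0.0546). Uqcrc1, of complex III, was at 1300, 933 and 1030 CPM against 82, 200 and 236 CPM (-2.61 ± 0.4, adjusted p = 0.0695). Atp5e, the epsilon subunit of the same ATP synthase as Atp5b, was at 189, 209 and 190 CPM against 328, 513 and 284 CPM (1.01 ± 0.32, adjusted p = 0.395). By DESeq2, Cox8a (adjusted p = 1.68e-12) and Uqcrc1 (adjusted p = 2.11e-10) were called lower and Atp5e (adjusted p = 0.0157) higher. Groups were apart in 22 members in the higher and 13 in the lower direction, beside 7.48% and 11.1% of all genes. Of these, 16 of the 42 members without a G+C stretch were higher (12.5% of all such genes) and 12 of the 36 with one lower (15.6%). The 13 genes of the mitochondrial genome had a median of -0.02, and took 1.8% to 2.44% of the counts in Sting-/- and 1.75% to 2.37% in DKO.

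Proteasome genes had a median of 0.39 over 38 tested. Psmd8, of the regulatory lid, was at 289, 308 and 280 CPM against 52.1, 34.5 and 73.9 CPM (-2.39 ± 0.4, adjusted p = 0.089), and Psmc4, an ATPase of the base, was at 223, 289 and 390 CPM against 666, 440 and 628 CPM (1.01 ± 0.3, adjusted p = 0.365). By DESeq2, Psmd8 was called lower (adjusted p = 7.4e-08) and Psmc4 higher (adjusted p = 0.00805). Splicing genes had a median of 0.08 over 69 tested, with the helicase Ddx5 at 4760, 4360 and 4020 CPM against 1020, 1680 and 1870 CPM (-1.47 ± 0.24, adjusted p = 0.0854). Ddx5 was called lower by DESeq2 (adjusted p = 1.66e-07). Small GTPases had a median of 0.12 over 52 tested, which changed sign when single libraries were left out. In 12 members the groups were apart and lower, and in 2 apart and higher, beside 11.1% and 7.48% of all genes. Of the 12, 10 were among the 39 members with a G+C stretch of 70%, where 15.6% of all such genes were apart and lower. Of the small GTPases, Rab1a, of transport from ER to Golgi, was at 260, 197 and 233 CPM against 20.4, 38.3 and 66.7 CPM (-2.42 ± 0.53, adjusted p = 0.203). Rab4a was at 281, 26.9 and 14 CPM against 0.498, 0.991 and 0.588 CPM (-7.18 ± 1.59, adjusted p = 0.213). By DESeq2, Rab1a (adjusted p = 8.77e-05) and Rab4a (adjusted p = 1.4e-08) were called lower. Rab1a and the p53 target Plk2 had lower values in DKO although their richest stretches held 61% and 69% G+C. Plk2 was at 540, 336 and 312 CPM against 64.9, 146 and 142 CPM (-1.71 ± 0.42, adjusted p = 0.274).

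Wnt, Notch and TGF-beta genes had a median of -0.62 over 21 tested, all 21 with a G+C stretch of 70%, and of -0.1 without Sting-/- replicate 1. In 5 members the groups were apart and lower, and in 0 apart and higher, beside 15.6% and 4.52% of all genes with such a stretch. Id1, a target of BMP signalling, was at 127, 187 and 403 CPM against 6.06, 35.4 and 60.1 CPM (-2.78 ± 0.85, adjusted p = 0.369), and Eng, a co-receptor of TGF-beta, was at 95.7, 153 and 69.2 CPM against 3.28, 23.4 and 25.8 CPM (-2.54 ± 0.98, adjusted p = 0.521). By DESeq2, Id1 (adjusted p = 0.004) and Eng (adjusted p = 0.0437) were called lower. Chromatin regulators had a median of 0.42 over 24 tested. Phf6, mutated in leukemia, was at 34.8, 74.6 and 85.6 CPM against 238, 310 and 161 CPM (1.95 ± 0.49, adjusted p = 0.287), while the cohesin subunit Smc3 was at 204, 110 and 241 CPM against 17.1, 31.2 and 60.5 CPM (-2.32 ± 0.63, adjusted p = 0.326). Their richest stretches had 72% and 75% G+C. By DESeq2, Phf6 was called higher (adjusted p = 0.00063) and Smc3 lower (adjusted p = 0.003). Histone genes, linker histones included, had the lowest median, -1.68 over 31 tested and -2.94 without DKO replicate 3, with the linker histone Hist1h1c at 135, 45 and 46.9 CPM against 1.61, 3.09 and 1.67 CPM (-5.08 ± 1.27, adjusted p = 0.284). Hist1h1c was called lower by DESeq2 (adjusted p = 2.36e-06). In 15 histone genes the groups were apart and lower, and in 2 apart and higher, beside 11.1% and 7.48% of all genes. All 15 were among the 28 with a G+C stretch of 70%, where 15.6% of all such genes were apart and lower. The 3 histone genes without one had a median of -1.51, beside 0.38 for all genes of that kind. Many histone genes are near-identical copies and many of their mRNAs lack a poly(A) tail. Without a call by edgeR were also glycolysis (median 0.41 over 18 tested), p53 and survival (0.15 over 21), and homing and adhesion genes (-0.19 over 17). The medians of the p53 and of the homing list changed sign when single libraries were left out. DESeq2 called Pgam1 of glycolysis lower (adjusted p = 0.0123). Of p53 and survival it called Plk2 lower (adjusted p = 0.000942) and Mcl1 higher (adjusted p = 0.000512).

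**Figure D4:**
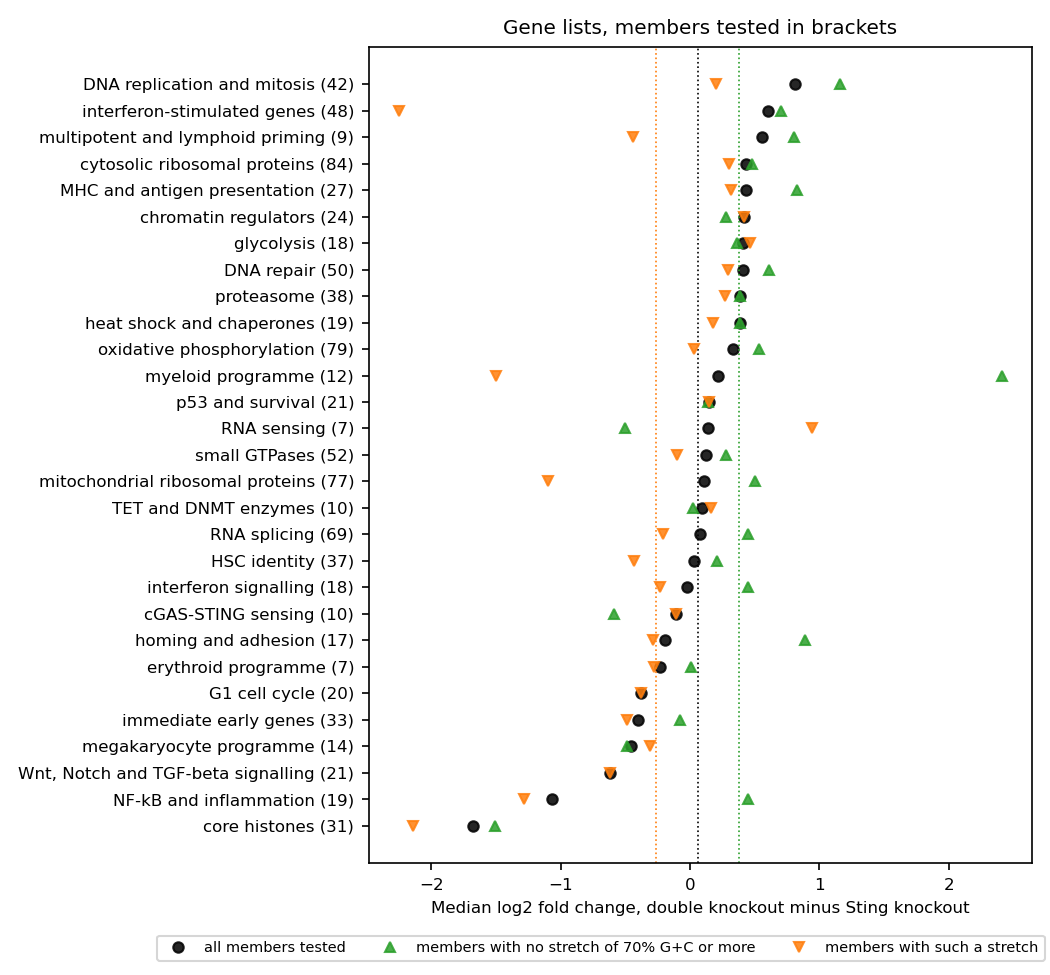
Median log2 fold change of DKO minus Sting-/- (x axis) for each gene list, with the number of members tested in brackets; black circles are all members, green triangles members without a 100-base stretch of 70% G+C or more, orange triangles members with one, and dotted lines the same medians over all genes tested. DNA replication and mitosis lies highest at 0.81 and the histone list, drawn as core histones but with linker histones in it, lowest at -1.68.

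The first table of the series holds the same contrast of Tet2 in mice with Sting, as 4 Tet2-/- and 3 WT LT-HSC libraries. Setting them side by side asks whether the difference by Tet2 genotype was itself different in mice labelled as lacking Sting. The Tet2-/- against WT values of the 14 called genes found in both tables were all below 0, from -1.19 to -0.09, and none passed (smallest adjusted p = 0.637), where 46.7% of all genes tested there were below 0. The difference of the 2 effects was called in 43 genes in the lower direction (0.329% of 13069 tested) and in 23 in the higher (0.176%), and 9 of the 15 genes were among the 43. These counts fell to 3 to 12 lower and 2 to 7 higher when Tet2-/- replicate 2, 3, 4 or 5 or WT replicate 2, 3 or 5 of the first table was left out. They rose to 80 to 154 lower and 56 to 158 higher when any of the 6 Sting-/- and DKO libraries was left out, and DESeq2 called 1114 and 701. For Nfkbia the difference was -3.08 ± 0.57 (adjusted p = 0.0355), for Junb -4.57 ± 0.9 (adjusted p = 0.0418) and for Rpl13 -3.6 ± 0.73 (adjusted p = 0.0472).

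In the higher direction the difference was called for Hspa8 at 1.7 ± 0.33 (adjusted p = 0.0417) and Hnrnpc at 1.38 ± 0.28 (adjusted p = 0.0443). For Hsp90ab1 it was 1.25 ± 0.27 (adjusted p = 0.058), for H2-Aa 0.86 ± 0.48 (adjusted p = 0.397) and for Stip1 2.14 ± 0.52 (adjusted p = 0.0964). Of the 23 genes called higher, 20 had 3 counts or fewer in each Sting-/- library, and of the 43 called lower 16 had 3 or fewer in each DKO library. Across the 8827 genes tested in both comparisons, which share no library, Spearman's rho between the effects was 0.04. Replication and mitosis genes had medians of 0.81 in the libraries labelled Sting-/- and DKO and -0.29 in those of the first table, interferon-stimulated genes 0.6 and 0.52, and NF-kB genes -1.07 and 0.03, with no test of these medians.

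The tables differed in more than Sting. They list 35976 and 55421 genes and hold separate sets of libraries, so the set and the Sting genotype cannot be told apart. In 13 of the 14 genes, with Chchd2 as the exception, all 7 LT-HSC libraries of the first table lay below the lowest Sting-/- library. Junb was at 37.5, 12.9 and 53.5 CPM in the WT and 46.2, 14.2, 21.5 and 43.3 CPM in the Tet2-/- libraries of the first table, closer to the DKO libraries at 7.09 to 23.2 CPM than to the WT libraries of the second table at 675 to 2130 CPM. Nfkbia was at 177, 106 and 228 CPM and at 121, 82.5, 55.7 and 49.9 CPM in those libraries. Of the genes with a called difference, 34 of the 43 lower and 9 of the 23 higher had a G+C stretch of 70% or more. The share over all genes tested for the difference is not given here. Among genes with a transcript tested in DKO against Sting-/- it was 62.8%.

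**Figure D5:**
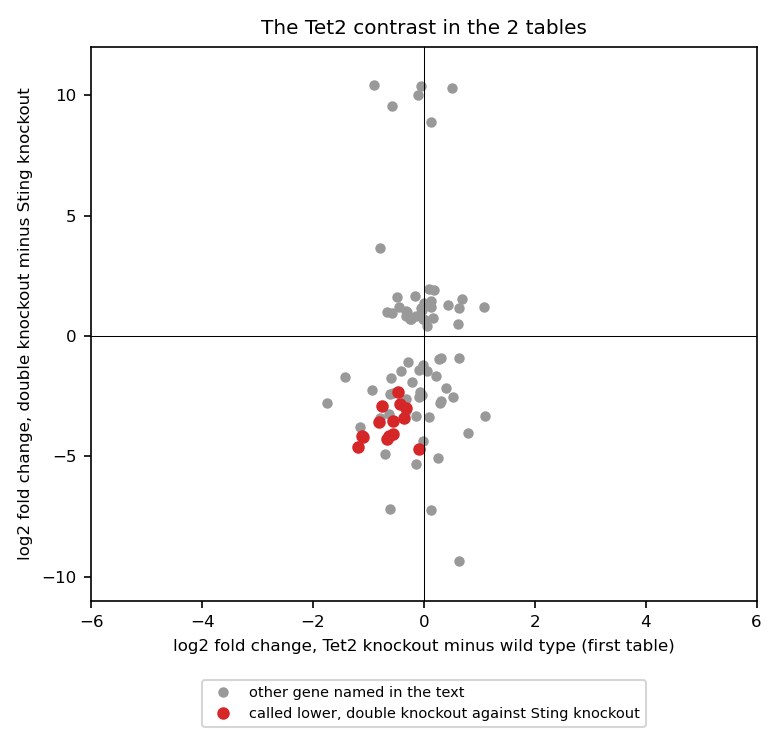
Log2 fold change of Tet2-/- minus WT in the first table (x axis) against that of DKO minus Sting-/- (y axis) for the genes named here, Tet2 and Tmem173 left out; red points are the called genes found in both tables. The red points lie between -1.19 and -0.09 on the x axis and between -4.71 and -2.35 on the y axis.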

How the data were processed

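The authors trimmed reads with Trim Galore (0.5.0 in the study's methods, 0.6.7 in the submitters' processing notes). The reads were mapped to mm10 with Hisat2 (2.1.0 in the methods, 7.5.0 in the notes), and the notes list mm9 beside mm10. In the methods, genes were called with DESeq2 at an adjusted p under 0.05 and at least 2-fold. The deposited values are raw whole-number counts per gene; the counting program and annotation are not given in the sources used here. A gene split over 2 lines without counts was left out of the 9-library table. Libraries were grouped by their labels.

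The 6 libraries were fitted with edgeR 4.0.16 under R 4.3.3 (filterByExpr, TMM, quasi-likelihood, prior count 2), and called at a Benjamini-Hochberg adjusted p under 0.05 and 2-fold. SE was the log2 fold change over the square root of F. CPM are counts scaled to the library total, and the floor was 3 counts per library. The procedure was tested on simulated data. The difference from the Tet2 effect in the first table was a contrast of 4 groups over 26756 genes joined by symbol. Reference transcripts came from GENCODE vM21 by symbol and matched 94.8% of the genes tested.

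The comparison and the gene lists were chosen with earlier results of these data known. Named genes were Tet2, Tmem173, every called gene, the 12 higher genes of smallest p, and up to 4 per list (2 of smallest p, 2 of highest level). Cd74, H2-Ab1, Hsp90aa1, Atf4, Ppp1r15a, Ifi203, Icam1, Nfkb1, Nfkbib, Ptgs2, Ndufa6, Cdc20, Cenpa, Rpl24, Uqcrc1, Atp5e, Psmc4, Lmo2, Hist1h1c and Nf1 were named after their values were seen. Alternatives were DESeq2 1.42.0, RLE scaling, other count filters, all 9 libraries in one fit, a replicate block, leaving out each library and, added after seeing the data, the tests by G+C. Depth was 34137655 to 78682096 counts per library. Some items are not reported here.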

Additional observations from a re-analysis of the deposited data

Results flagged for a closer look

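Of the 43 lower and 23 higher genes with a called difference, the 16 lower and 7 higher ones named in the text are given here, and the others are left out. In each the difference between the DKO against Sting-/- effect and the Tet2-/- against WT effect of the first table passed an adjusted p of 0.05 in edgeR; set and Sting genotype change together in it. On the log2 scale the difference was 10.65 for Rab3gap1, 11.5 for Zc3h8, 9.96 for Zfp758, 10.27 for Kif11 and 10.24 for Rad9a, all near absent from the Sting-/- libraries, so these fitted values depend on the prior count. It was 1.7 for Hspa8 and 1.38 for Hnrnpc.

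In the lower direction it was -3.01 for Pgrmc1, -2.38 for H2-D1, -1.64 for H2-K1, -2.98 for Ier2, -2.64 for Eif1, -10.17 for Nf1 and -7.32 for Dtx3l. It was -5.17 for Psmd5, -1.86 for Arpc2, -3.44 for Ndufa6, -3.08 for Nfkbia, -2.73 for Dnajb9, -3.52 for Dnajb1, -4.57 for Junb, -2.51 for Ppp1r15a and -3.6 for Rpl13. Nf1 and Dtx3l were near absent from the DKO libraries.

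One library lay apart from the other 3 Tet2-/- LT-HSC libraries of the first table, relative to the range of all 4, in Atp5b (507 CPM), Dnajb1 (225 CPM) and Pgrmc1 (210 CPM). For Pgrmc1 the others were at 170, 173 and 176 CPM, so the gap was small in size. Chance alone marks about 1 in 20 groups in this way, and 14 genes were looked at.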

How the results depend on the processing

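Calls in DKO against Sting-/- were 0 higher and 15 lower, and 4 and 43 without a low-count filter, 2 and 35 with 10 counts in every library of 1 group, 3 and 72 with all 9 libraries in one fit, and 153 and 484 with DESeq2. RLE scaling gave 0 and 14. Leaving out a library gave 0 and 0 in each case, and so did genes without a G+C stretch of 70% and the G+C correction. With the replicate number as a block the calls were 0 and 0; correlations of same-numbered libraries were 0.024, -0.018 and 0.04, so the numbers do not pair them. Beside 173 higher and 489 lower at an unadjusted p, DESeq2 gave 365 and 836, no filter 270 higher, all 9 libraries 312 and 824, and genes without a G+C stretch 45 and 72; without one library they ran from 189 to 334 and from 398 to 547. The 15 genes were lower in all alternatives that tested them. Tet2 ran from -0.75 to 1.97 when one library was left out, below 0 without Sting-/- replicate 1 (-0.01), Sting-/- replicate 3 (-0.26) and DKO replicate 1, and B2m -0.01 with the G+C correction. Of the list medians, 45 values moved by more than the spread between libraries. On genes without a G+C stretch, where the median of all genes was -0.01, the medians over the members left (3 of 19 for heat shock, 5 of 19 for NF-kB) were 0.03 for NF-kB, -0.02 for heat shock, 0 for proteasome, 0.13 for oxidative phosphorylation and 0.08 for ribosomal genes. Of the 45, those that changed sign without one library were p53 and survival (-0.14 and -0.11 without DKO replicates 2 and 3), small GTPases (-0.01 and -0.17 without Sting-/- replicate 3 and DKO replicate 1) and homing (0.53 without Sting-/- replicate 2); DNA sensing was 0.5 and HSC identity -0.24 under the block. Other list medians crossed 0 within that spread, as the megakaryocyte programme did at 0.03 without DKO replicate 1, and medians near 0 have no stable sign. Wnt, Notch and TGF-beta was -0.1 without Sting-/- replicate 1, and the histone list -2.94 without DKO replicate 3. The difference between sets was called in 23 higher and 43 lower genes, with DESeq2 in 701 and 1114, among genes without a G+C stretch in 13 and 11, and without one library in 2 to 158 and 3 to 154. Apart from the steps that test fewer libraries or genes, the cause of these shifts was not tested. Genes at 3 counts or fewer in a group are limited by depth.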
